A study of Mus musculus with 9 samples.

Results

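Muscle actin and contractile genes were followed in N2A cells, a mouse neuroblastoma line, after siRNA knockdown of splicing and transcription regulators. The set holds 10 of the 21553 genes with counts: the muscle actins Acta1, Acta2 and Actg2, the myosin light chain gene Myl9, the actin-binding gene Tagln, the tropomyosin genes Tpm1, Tpm2 and Tpm3, the filamin gene Flnc and the PDZ-LIM gene Pdlim3. They were picked by symbol because the actins moved in different directions between knockdowns and because tropomyosin and filamin exons were measured. The same knockdown contrasts therefore chose them, so their differences are given below as a description with no test. The splicing tables hold 141 events in these genes, of 283013 events in the first experiment and 285260 in the second.

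All cells received a SMARTpool siRNA mix with Lipofectamine RNAiMAX and were harvested 48 h later, and RNA was sequenced from 9 libraries. The first experiment has 1 library each for siMbnl1/Mbnl2, siNacc1 and the non-targeting pool siNT, so it has no replicates. The second has 2 libraries each for siSrrm4, siZfp871 and its own siNT pool, marked a and b. No source says whether these are separate cultures, so the spread between them may be technical, and all groups come from 1 tumour-derived line.

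Actin filaments slide along myosin to give contraction. Vertebrates use separate genes for skeletal actin (Acta1), the smooth muscle actins (Acta2 and Actg2) and the cytoplasmic actins. Tropomyosins lie along the filament and gate myosin binding, Myl9 is the regulatory light chain of smooth and non-muscle myosin, and filamins cross-link filaments. Many of these genes are textbook targets of serum response factor (SRF), which binds the CArG box and whose myocardin-related coactivators respond to the pool of free actin. Tropomyosin genes also choose between neighbouring exons that are spliced in a mutually exclusive way.

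The tropomyosin exons whose inclusion is described below come in pairs of equal length, shown to let each pair be compared. Sequences are from GENCODE vM21, found by exon and intron length, and positions are those of the deposited tables (mm9). The upstream and downstream copies in Tpm1 lie at chr9:66880273-66880348 and chr9:66879758-66879833, minus strand. Those in Tpm3 lie at chr3:89892323-89892398 and chr3:89892970-89893045, plus strand, the first being matched on 1 flanking intron only. Those in Tpm2 lie at chr4:43531875-43531950 and chr4:43531516-43531591, minus strand. Capitals mark the bases that differ between the 2 copies of a gene, 5′ to 3′.
Tpm1 upstream copy: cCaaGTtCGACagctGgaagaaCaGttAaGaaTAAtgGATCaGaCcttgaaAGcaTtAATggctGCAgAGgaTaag
Tpm1 downstream copy: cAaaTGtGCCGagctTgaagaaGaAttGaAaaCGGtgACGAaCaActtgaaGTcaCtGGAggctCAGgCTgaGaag
Tpm3 upstream copy: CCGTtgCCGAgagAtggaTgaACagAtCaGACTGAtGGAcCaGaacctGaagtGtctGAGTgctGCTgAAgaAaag
Tpm3 downstream copy: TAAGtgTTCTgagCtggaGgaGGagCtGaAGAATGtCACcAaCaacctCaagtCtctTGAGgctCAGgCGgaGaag
Tpm2 upstream copy: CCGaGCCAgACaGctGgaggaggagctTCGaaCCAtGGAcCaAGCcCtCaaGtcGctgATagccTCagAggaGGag
Tpm2 downstream copy: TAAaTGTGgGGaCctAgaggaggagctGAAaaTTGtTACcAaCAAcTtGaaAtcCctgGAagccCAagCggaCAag

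The 2 copies within Tpm1 matched at 43 of 76 bases (56.6%), those within Tpm3 at 39 of 76 (51.3%) and those within Tpm2 at 41 of 76 (53.9%). Copies in the same place were closer across genes: the upstream copies of Tpm1 and Tpm3 matched at 50 of 76 bases (65.8%) and the downstream copies at 57 of 76 (75%). Further downstream, Tpm1 has a 79-nt exon at chr9:66877471-66877549 (minus strand), whose Tpm3 counterpart lies at chr3:89894935-89895013 (plus strand). These matched at 70 of 79 bases (88.6%), and capitals mark the 9 bases that differ. The last exon shown is the 99-nt exon of Flnc at chr6:29402799-29402897 (plus strand), whose length is a whole number of codons.
Tpm1 79-nt exon: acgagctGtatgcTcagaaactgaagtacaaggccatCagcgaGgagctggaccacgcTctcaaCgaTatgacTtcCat
Tpm3 79-nt exon: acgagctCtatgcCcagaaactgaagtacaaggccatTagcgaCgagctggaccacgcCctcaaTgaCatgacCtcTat
Flnc 99-nt exon: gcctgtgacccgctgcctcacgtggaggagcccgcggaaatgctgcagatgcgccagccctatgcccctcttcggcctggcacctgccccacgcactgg

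Promoter windows were read from RefSeq (GRCm38.p6), from 250 bases before to 50 after each gene's start. Entries were found for 8 of the 10 genes, in 10 windows, with none used for Actg2 and Tagln. The CArG box, searched by its consensus on both strands, was found in 2 of the 10 windows, those of Acta1 and Myl9, against 535 of 32851 windows of the same length over all genes (1.63%). It starts 73 bases before the start of Acta1 and 161 bases before that of Myl9. The sequence CATTCC, the core bound by TEAD factors, on both strands, was in 6 of the 10 windows and 5 of the 8 genes (Acta1, Acta2, Tpm1, Flnc and Pdlim3), against 4817 of 32851 windows (14.7%). Neither search looked beyond these windows, and only exact matches were counted, so variant boxes that differ at a base would be missed. The 50 bases around each CArG box, in capitals, are chr8:123894819-123894868 (minus strand) and chr2:156775283-156775332 (plus strand).
Acta1 promoter: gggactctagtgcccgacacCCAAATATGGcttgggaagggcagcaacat
Myl9 promoter: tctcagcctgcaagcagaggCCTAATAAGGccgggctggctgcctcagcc

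Reads mapped to genes summed to 50086176, 61038964 and 63715449 counts in siMbnl1/Mbnl2, siNacc1 and siNT of the first experiment, and to between 44186088 and 61159670 in the second. Targeted genes were lower in their own knockdown: Srrm4 had 28.3 and 26.1 CPM (counts scaled to library size) in siSrrm4, against 66.8 and 96.7 in siNT. It had 44.9 and 53.7 CPM in siZfp871 (log2 fold change -0.73, edgeR adjusted p = 0.099). Zfp871 had 7.17 and 5.08 CPM in siZfp871, against 17.6 and 26.2 in siNT. Of the first experiment's targets, Mbnl1 had 45.2 CPM and Mbnl2 18.2 CPM in siMbnl1/Mbnl2, against 124 and 65.7 in siNT, and Nacc1 had 52.0 CPM in siNacc1, against 209 in siNT. Mbnl1 was also lower in siNacc1, at 82.7 CPM. Of the markers of the labelled neuroblastoma line reported here, 14 had at least 10 counts in every library, while Nefl and Nefm did not. Myod1 and Myog, the master regulators of skeletal muscle, had 0 or 1 count in each library, Myf5, Myf6 and Pax7 had 0, and so did Myocd, the smooth muscle coactivator, in all 9. The skeletal list was carried by embryonic myosin Myh3, at 11437 to 20142 counts.

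Levels between genes can be compared only per length, as RPKM. In siNT of the second experiment, with gene lengths implied by the deposited values of the first, Tpm3 was highest, at 146.9 ± 5.46 RPKM, followed by Tpm1 at 52.8 ± 5.47, Tpm2 at 37.6 ± 1.59 and Pdlim3 at 25.1 ± 4.04 (SD, n = 2). The order went on with Myl9 at 14.8 ± 6.07, Actg2 at 11.6 ± 12.1, Acta2 at 5.22 ± 4.38 and Flnc at 3.91 ± 0.0474 RPKM. Tagln at 0.569 ± 0.153 and Acta1 at 0.226 ± 0.00208 RPKM came last. Myl9 and Actg2, Actg2 and Acta2, and Acta2 and Flnc are neighbours whose libraries overlapped.

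**Figure D1:**
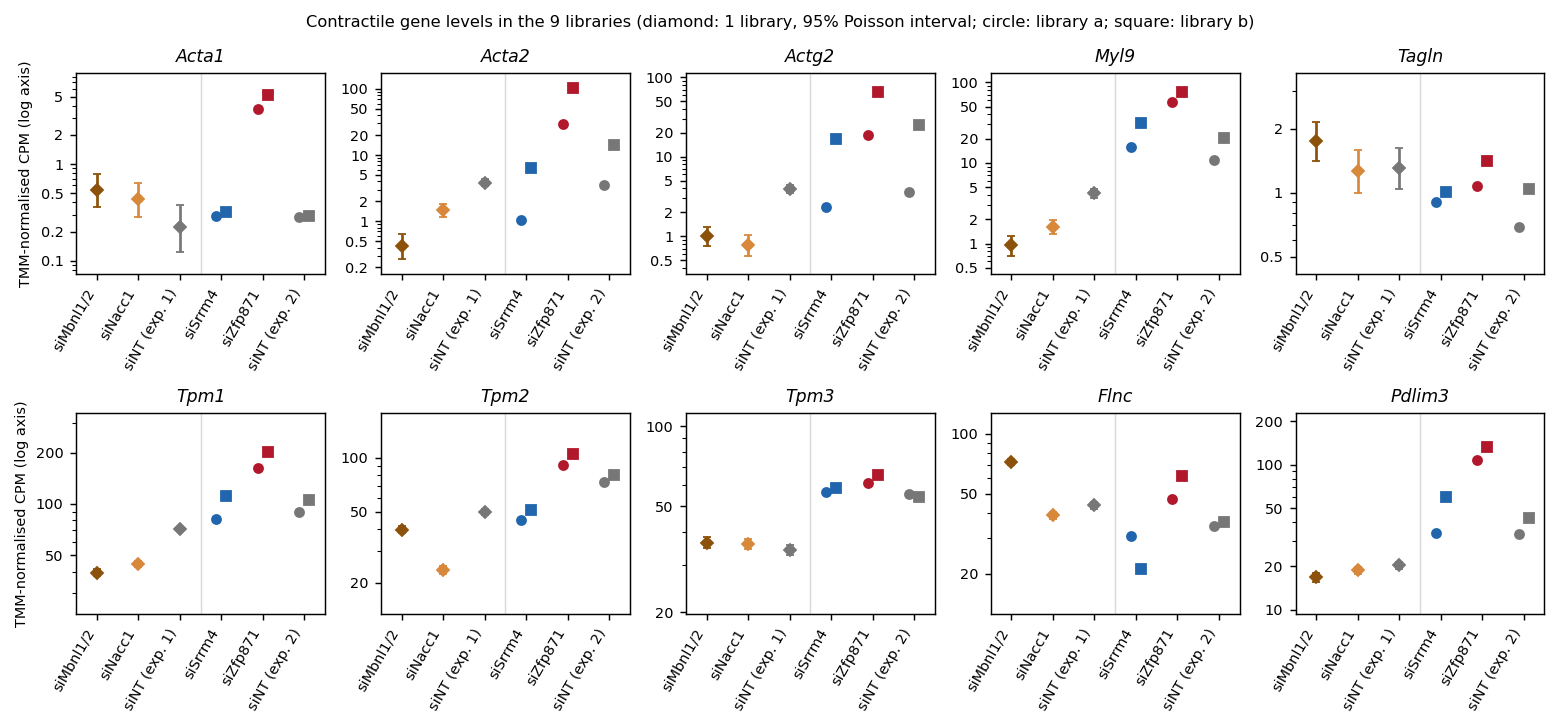
Normalised CPM (log axis, scaled separately for each gene) of the 10 genes in each library, knockdowns to the left of their control within each experiment. Diamonds are single libraries with a 95% exact Poisson interval, circles library a and squares library b. Both siZfp871 libraries sit above both siNT libraries for every gene except Actg2, and library b sits far above library a for Acta2 and Actg2 in each group. The 2 experiments were normalised separately, so heights are not compared across the grey line.

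Limits of the counting touch some of these genes. Of the 50-base windows of the Tpm3 transcript, 62.4% also occur in other genes, among them Tpm3-rs7 and pseudogenes, and the deposited values imply that Tpm3 counts were divided by 374 bases. Of the Tagln windows, 48.3% lie in genes on the opposite strand (Gm48529 and Pcsk7), and Acta1 lies wholly inside Gm20388 on the opposite strand. Without stated strand use, reads of such partners cannot be told apart. Shared windows were 2.22% for Acta1, 0.352% for Acta2 and 0 for the other 6 genes.

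The muscle actins were high in siZfp871 cells and low, except Acta1, in the knockdowns of the first experiment. Acta1, skeletal muscle actin, had 3.69 and 5.12 CPM in siZfp871, against 0.281 and 0.292 CPM in siNT (a and b). The same gene had 0.287 and 0.318 CPM in siSrrm4. The siZfp871 libraries are the only high ones, and siSrrm4 overlapped siNT. The log2 fold change was 3.93 (SE 0.31) in siZfp871 and 0.08 (SE 0.33) in siSrrm4. Acta1 in the first experiment rested on 28, 26 and 14 counts in siMbnl1/Mbnl2, siNacc1 and siNT. That is 0.542 CPM (95% exact Poisson interval 0.36 to 0.784) in siMbnl1/Mbnl2, 0.433 (0.283 to 0.635) in siNacc1 and 0.223 (0.122 to 0.374) in siNT. Both knockdown values lie above the control, by log2 fold changes of 1.17 and 0.86, with intervals that overlap its own.

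Acta2, smooth muscle alpha-actin, had 29.1 and 102 CPM in siZfp871, against 3.54 and 14.3 CPM in siNT. It had 1.04 and 6.32 CPM in siSrrm4. Library b was higher than library a in every group, by 3.49 times in siZfp871, 6.08 times in siSrrm4 and 4.03 times in siNT. Both siZfp871 libraries were above both siNT libraries, while siSrrm4 and siNT overlapped. The log2 fold change was 2.87 (SE 1.01) in siZfp871 and -1.25 (SE 1.00) in siSrrm4. Within the letters a and b it was 3.02 and 2.83 in siZfp871, and -1.73 and -1.17 in siSrrm4. In the first experiment Acta2 had 0.426 CPM (0.267 to 0.645) in siMbnl1/Mbnl2 and 1.47 (1.18 to 1.81) in siNacc1, against 3.82 (3.35 to 4.33) in siNT. These 3 intervals do not overlap, and the log2 fold changes were -3.06 and -1.36.

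Actg2, the enteric smooth muscle actin, had 19.0 and 66.2 CPM in siZfp871, against 3.63 and 24.8 CPM in siNT. In siSrrm4 it had 2.32 and 16.9 CPM. It is the only one of the 10 genes whose siZfp871 and siNT libraries overlapped, since siNT library b was above siZfp871 library a. Within letters the log2 fold change was 2.38 and 1.42 in siZfp871 and -0.64 and -0.55 in siSrrm4, and over the groups it was 1.59 (SE 1.15) and -0.55 (SE 1.14). The siZfp871 value was 0.44 without siZfp871 library b, 0.79 without siNT library a and 3.56 without siNT library b. Library b exceeded library a by 3.48 times in siZfp871, 7.28 times in siSrrm4 and 6.83 times in siNT. Whether the letter takes part in the levels of Acta2 and Actg2 was not tested, as no source says what it stands for. Actg2 in the first experiment had 1.01 CPM (0.752 to 1.32) in siMbnl1/Mbnl2 and 0.766 (0.561 to 1.02) in siNacc1, against 3.93 (3.45 to 4.45) in siNT. Both knockdown libraries were low, with log2 fold changes of -1.93 and -2.31.

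The Actg2 intron of 3527 nt stood apart in the splicing tables. Between 5770 and 27126 reads per library were assigned to it, with inclusion of at most 0.02%, although the whole gene had 46 to 3333 counts. The 35 junction windows of 50 bases across it were found whole in no other gene, and the closest window differed at 1 base from Acta1 and Actc1, at 2 bases from Actb and Actg1 and at 3 from Acta2. Where these reads came from was not tested, and no Actg2 splicing value is used here.

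Among the cytoplasmic and cardiac actins, which are not in the set, Actb had 4318 and 5325 CPM in siZfp871, 4324 and 5102 in siSrrm4 and 4139 and 4720 in siNT. Actg1 had 6367 and 7049 CPM in siZfp871, 7987 and 8271 in siSrrm4 and 8219 and 8588 in siNT. Cardiac actin Actc1 had 1.25 and 1.21 CPM in siZfp871, on 56 and 61 counts, against 0.13 and 0.125 CPM in siNT, on 6 and 6. It passed the filter on low values only through the siZfp871 libraries, so no test is given for it. Actb in the first experiment had 1749 CPM in siMbnl1/Mbnl2 and 1682 in siNacc1, against 2422 in siNT, and Actg1 had 4410 and 3191 against 6173. Both cytoplasmic actins were therefore lower in both knockdowns of that experiment, short of the size rule of a log2 fold change of 1.

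Myl9, the regulatory myosin light chain, had 56.5 and 76.2 CPM in siZfp871, against 10.9 and 20.4 CPM in siNT. It had 15.7 and 31.5 CPM in siSrrm4. The siZfp871 libraries were above all others, and siSrrm4 overlapped siNT. The log2 fold change was 2.08 (SE 0.42) in siZfp871 and 0.59 (SE 0.41) in siSrrm4, with library b above library a by 1.35, 2.00 and 1.87 times in siZfp871, siSrrm4 and siNT. Myl9 in the first experiment had 0.949 CPM (0.702 to 1.25) in siMbnl1/Mbnl2 and 1.60 (1.30 to 1.95) in siNacc1, against 4.21 (3.72 to 4.75) in siNT. Both were low, by log2 fold changes of -2.11 and -1.38. Tagln, the calponin-related transgelin of smooth muscle, stayed near 1 CPM throughout. It had 1.07 and 1.41 CPM in siZfp871, 0.906 and 1.00 in siSrrm4 and 0.691 and 1.04 in siNT, and 1.74, 1.27 and 1.30 CPM in siMbnl1/Mbnl2, siNacc1 and siNT of the first experiment. Its log2 fold changes lay between -0.04 and 0.52, on 32 to 90 counts a library.

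The tropomyosin genes had smaller differences. Tpm1 had 162 and 200.3 CPM in siZfp871, against 89.2 and 106 CPM in siNT, a log2 fold change of 0.89 (SE 0.18). In siSrrm4 it had 81.7 and 111 CPM, on both sides of siNT, at -0.02 (SE 0.18). Tpm1 was lower in the first experiment, at 39.5 CPM (37.8 to 41.3) in siMbnl1/Mbnl2 and 44.4 (42.7 to 46.1) in siNacc1, against 71.0 (68.9 to 73.1) in siNT. Tpm2 had 91.1 and 105 CPM in siZfp871, against 73.6 and 80.3 CPM in siNT. It had 45.2 and 51.4 CPM in siSrrm4, so that siSrrm4 lay below siNT and siZfp871 above it. The log2 fold changes were 0.35 (SE 0.11) in siZfp871 and -0.67 (SE 0.12) in siSrrm4. Tpm2 in the first experiment had 39.6 CPM (37.9 to 41.4) in siMbnl1/Mbnl2 and 23.6 (22.4 to 24.9) in siNacc1, against 49.9 (48.1 to 51.6) in siNT. The siNacc1 value is a log2 fold change of -1.08. Tpm3 differed least, with 61.0 and 65.8 CPM in siZfp871, 56.4 and 58.6 in siSrrm4 and 55.5 and 54.1 in siNT, and log2 fold changes between 0.07 and 0.21 in all 4 knockdowns.

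Flnc, muscle filamin, and Pdlim3, a Z-disc protein that binds alpha-actinin, differed in their pattern. Flnc had 47.3 and 61.7 CPM in siZfp871, against 34.8 and 36.3 CPM in siNT, and 30.7 and 21.0 CPM in siSrrm4. The 3 groups do not overlap, with log2 fold changes of 0.62 (SE 0.20) in siZfp871 and -0.46 (SE 0.21) in siSrrm4. Flnc in the first experiment was high in siMbnl1/Mbnl2, at 71.9 CPM (69.6 to 74.3), with 39.1 (37.5 to 40.7) in siNacc1 and 43.9 (42.3 to 45.5) in siNT. Pdlim3 had 109 and 133 CPM in siZfp871, against 33.5 and 43.3 CPM in siNT, a log2 fold change of 1.66 (SE 0.28). It had 33.7 and 59.9 CPM in siSrrm4, overlapping siNT, at 0.29 (SE 0.28). In the first experiment it had 16.8, 18.7 and 20.3 CPM in siMbnl1/Mbnl2, siNacc1 and siNT, with log2 fold changes of -0.28 and -0.12.

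**Figure D2:**
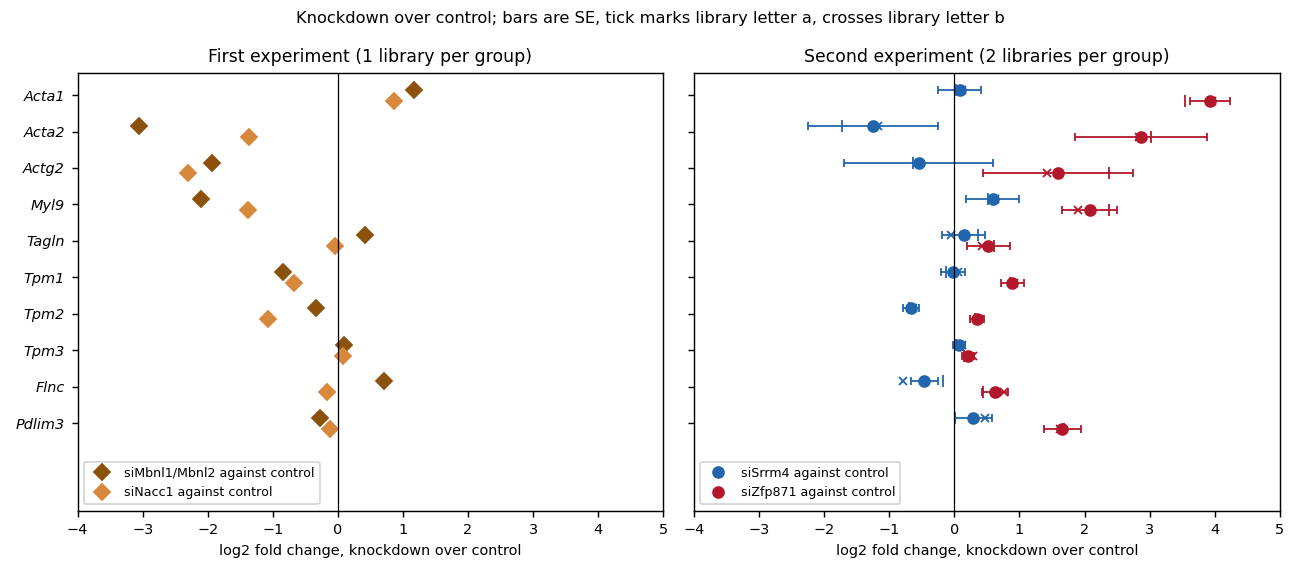
Log2 fold change of each gene, knockdown over control, in the first experiment (left, 1 library per group) and the second (right, 2 libraries per group). In the right panel bars are the SE implied by the quasi-likelihood test, and the tick marks and crosses are the differences within the letters a and b. Acta2, Actg2 and Myl9 lie below 0 in both knockdowns on the left and above 0 in siZfp871 on the right, where Acta1 reaches 3.93.

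In siZfp871, 9 of the 10 genes had both libraries above both siNT libraries, against 25% of all 12378 genes tested, and none had both below, against 25.5%. Both siSrrm4 libraries were above both controls for Tpm3 and below them for Tpm2 and Flnc, against 27.3% and 26.5% of all genes. Under the size rule of the first experiment (50 counts or more, and a log2 fold change of 1 or more either way), Acta2, Actg2 and Myl9 were past it, lower, in siMbnl1/Mbnl2. Over all 11604 genes the share was 1.02%, with 0.758% higher and 0.259% lower. The same genes and Tpm2 were past it in siNacc1, all lower, against 3.38% of 11580 genes in either direction and 2.97% lower. Since these contrasts chose the genes, the shares are given only as background. All 10 passed the filter on low values, each in all 6 libraries of the second experiment.

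siZfp871 and siSrrm4 can also be set against each other, without the shared siNT libraries. All 10 genes had both siZfp871 libraries above both siSrrm4 libraries, against 29.1% of all genes, and none had both below, against 30.3%. Acta2 and Acta1 had log2 fold changes of 4.12 (SE 1.07) and 3.85 (SE 0.30). With a library left out Acta2 ranged from 2.99 to 5.97 and Acta1 from 3.61 to 4.07, so their order depended on the libraries. The next were Actg2 at 2.14 (SE 1.17), Myl9 at 1.49 (SE 0.41) and Pdlim3 at 1.37 (SE 0.28). Flnc (1.08, SE 0.21), Tpm2 (1.02, SE 0.12) and Tpm1 (0.91, SE 0.18) came next, and Tagln (0.38) and Tpm3 (0.14) last. These differences share the libraries of the contrasts that chose the genes, and are not tested here.

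Marker sums of other cell types were read beside these levels. The smooth muscle list of 6 genes summed to 30.3 and 35.5 CPM in siZfp871, 32.0 and 38.7 in siSrrm4 and 33.7 and 34.2 in siNT, with Myocd at 0. Smtn (924 to 2255 counts over the 9 libraries) carried most of that sum, which therefore says little of Myh11 (5 to 56 counts) or Cnn1 (0 to 85). The skeletal list of 11 genes, 10 of them in the tables, summed to 303 and 317 CPM in siZfp871, 303 and 338 in siSrrm4 and 249 and 268 in siNT. The cardiac list of 4 genes (Nkx2-5, Myh6, Nppa and Tnnt2) summed to 28.2 and 40.0 CPM in siZfp871, 24.3 and 26.0 in siSrrm4 and 23.2 and 25.3 in siNT. Most of it was Nkx2-5, at 607 to 1864 counts over the 9 libraries. The mesenchymal list of 11 genes summed to 1824 and 2061 CPM in siZfp871, 2633 and 3358 in siSrrm4 and 2401 and 2840 in siNT, with Col3a1, Twist1 and Prrx1 at 0. Vim (69771 to 176164 counts over the 9 libraries) and Fn1 (11724 to 35026) carried nearly all of that sum. The skeletal and cardiac sums were higher and the mesenchymal sum lower in both siZfp871 libraries than in both siNT libraries. The skeletal sum was also higher in both siSrrm4 libraries than in both siNT libraries. What part these lists have in the actin levels was not tested. In bulk RNA, more cells of a type and more RNA per cell cannot be told apart.

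Tropomyosin and filamin exons were the main alternative exons of the set. Inclusion is given as PSI, the percent of reads that include the exon. Of 23 cassette exons listed, 20 had at least 10 reads in all 9 libraries, 12 of these had PSI from 2 to 98 in at least 1 library, and 6 differed by at least 10 points between a knockdown and its control. By knockdown these were 3 exons in siMbnl1/Mbnl2, 4 in siNacc1, 1 in siSrrm4 and 4 in siZfp871. Over all 20266 exons compared in the second experiment, 5.3% differed by as much in siSrrm4 and 4.95% in siZfp871, shares given only as background. No such share is given for the first experiment, so the counts for siMbnl1/Mbnl2 and siNacc1 have no background at this cut. Of the 20266 exons, edgeR called 25 in siSrrm4, all with lower inclusion, and 0 in siZfp871. Acta1, Acta2 and Myl9 have no cassette exon in the tables, the exons listed for Actg2 and Tagln had too few reads, and the 3 of Pdlim3 stayed under 1% or above 99%.

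In Tpm1 the upstream copy was included more, and the downstream copy less, in siNacc1 and siZfp871 than in their controls. The upstream copy had a PSI of 71.7 (95% Clopper-Pearson interval 67.4 to 75.7) in siNacc1 and 53.2 (48.2 to 58.2) in siMbnl1/Mbnl2, against 44.0 (40.0 to 48.0) in siNT. The downstream copy mirrored it, at 31.7 (27.3 to 36.5) in siNacc1 and 51.0 (46.5 to 55.4) in siMbnl1/Mbnl2, against 58.2 (54.8 to 61.6) in siNT. In the second experiment the upstream copy had a PSI of 47.3 and 43.8 in siZfp871, 33.5 and 27.2 in siSrrm4 and 35.5 and 32.9 in siNT. The downstream copy had 50.1 and 53.6 in siZfp871, 64.3 and 72.1 in siSrrm4 and 63.4 and 65.0 in siNT. Both siZfp871 libraries lay apart from both controls for each copy, by 11.4 and -12.3 points, while siSrrm4 overlapped the control for both. These values rest on 403 to 1697 reads per library.

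The 79-nt exon of Tpm1 was high in 1 library. Its PSI was 37.8 (31.6 to 44.4) in siMbnl1/Mbnl2 and 8.44 (5.10 to 13.0) in siNacc1, against 5.49 (3.42 to 8.28) in siNT. In the second experiment it stayed at 2.96 and 4.16 in siZfp871, 6.80 and 8.36 in siSrrm4 and 3.60 and 4.27 in siNT, so siSrrm4 lay 3.64 points above its control and siZfp871 overlapped it. The Tpm1 intron from chr9:66872373-66878835, which contains this exon, was retained at 80.4% in siMbnl1/Mbnl2, 60.5% in siNacc1 and 52.5% in siNT. In the second experiment that intron was at 22.2 and 44.2% in siZfp871, 21.1 and 22.9% in siSrrm4 and 19.3 and 26.8% in siNT. The intron next to the exon, chr9:66875975-66877470, went the other way in siMbnl1/Mbnl2, with 46.1% retained, against 66.7% in siNacc1 and 66.7% in siNT. It was at 43.3 and 45.9% in siZfp871, 30.5 and 29.2% in siSrrm4 and 35.5 and 45.9% in siNT of the second experiment. Retention of an intron that holds an exon cannot be told apart here from inclusion of that exon. The 79-nt exon of Tpm3 differed by 1.58 points or less in size in all 4 knockdowns and lay between 91.8 and 99.4% in all libraries, the reverse of its Tpm1 counterpart.

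The Tpm3 pair rested on few reads, 26 to 76 per library for the upstream copy. That copy had a PSI of 80.0 (60.2 to 92.8) in siNacc1 and 48.6 (28.7 to 68.8) in siMbnl1/Mbnl2, against 35.2 (22.0 to 50.3) in siNT. The siNacc1 interval lies above that of siNT, and the siMbnl1/Mbnl2 interval overlaps it. In the second experiment the copy was lower, at 18.7 and 9.87 in siZfp871, 17.1 and 5.57 in siSrrm4 and 21.3 and 13.3 in siNT, with all 3 groups overlapping. The downstream copy of Tpm3 was included at 76.9 to 100% in all 9 libraries, so that the PSI of the 2 copies did not sum to 100 as it did approximately in Tpm1. In Tpm2 the choice hardly varied. Its upstream copy lay between 1.84 and 4.92% and its downstream copy between 94.7 and 98.1%. A 63-nt exon of Tpm3 was included at 95.4 and 75.0% in siZfp871, 100 and 93.3% in siSrrm4 and 100% in both siNT libraries, on 29 to 58 reads.

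The 99-nt exon of Flnc went opposite ways in the 2 experiments. Its PSI was 89.2 and 87.9 in siZfp871 and 72.1 and 80.9 in siSrrm4, against 58.1 and 46.7 in siNT. Both knockdowns lay above both controls, by 36.1 and 24.1 points. In the first experiment it was 50.5 (39.2 to 61.7) in siMbnl1/Mbnl2 and 58.5 (42.3 to 73.5) in siNacc1, against 74.0 (61.9 to 84.0) in siNT. The siMbnl1/Mbnl2 interval lies below that of siNT, and that of siNacc1 overlaps it. The siNT libraries also differed between the 2 experiments, with 74.0 in the first against 58.1 and 46.7 in the second. Read numbers were 34 to 93 per library, and the exon's level and the gene's level did not go together in siSrrm4, where Flnc was lower and the exon higher than in siNT.

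**Figure D3:**
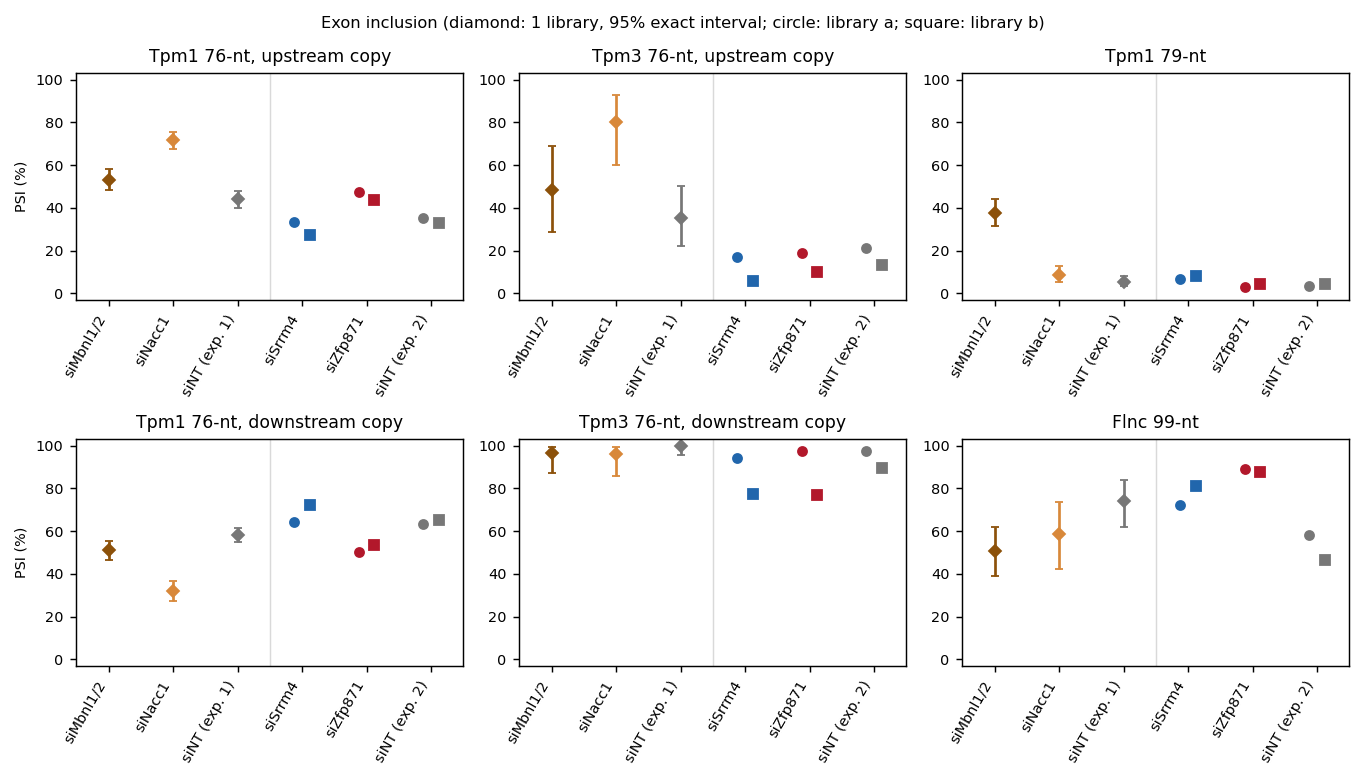
PSI (percent of reads that include the exon) of 6 exons in each library, knockdowns to the left of their control within each experiment. Diamonds are single libraries with a 95% exact interval from counting error only, circles library a and squares library b. The Tpm1 copies mirror each other, the Tpm1 79-nt exon stands at 37.8 in siMbnl1/Mbnl2 alone, and the Flnc exon lies above its control on the right and below it on the left.

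Under the size rule for exons (at least 20 reads, a difference of at least 20 points and intervals that do not overlap), the Tpm1 79-nt and Flnc exons were past it in siMbnl1/Mbnl2, against 0.531% of 36175 exons. Both Tpm1 copies and the upstream Tpm3 copy were past it in siNacc1, against 0.503%.

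Of the 100 introns listed, 70 had at least 10 reads in every library and 37 had retention from 2 to 98% in at least 1. The 27 such introns of Flnc stayed at or under 7.68%, and the 4 of Pdlim3 at or under 10.1%. Of the 4 introns that differed by at least 10 points, 2 are in Tpm1 and 2 in Tagln. The Tagln introns were retained at 57.9 to 100% in all libraries, on 13 to 32 reads. Opposite-strand genes overlap part of Tagln, and whether these introns lie in that part was not tested. The 3 measured alternative acceptors, in Flnc and Tpm2, differed by at most 2.78 points.

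A list of 25 SRF target genes outside the set was read too, and whether SRF takes part in any of these levels was not tested. Of 21 tested genes of this list, 6 rose and 0 fell in siZfp871 at an edgeR adjusted p of 0.05. Their median log2 fold change was 0.61, against -0.01 for all genes. Over all genes 2.89% were called, 0.751% higher and 2.14% lower, and DESeq2 called 12 of the 21, all higher. Every one of the 21 had a log2 fold change above 0, from 0.09 to 1.50, against 48.4% of all genes tested, and 16 had both siZfp871 libraries above both siNT libraries, against 25% of all genes. The list was chosen with results of these data known, and its genes share the siNT and siZfp871 libraries with the contractile genes.

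Among the 6 that rose, Fos, an immediate early transcription factor, had 11.4 and 14.1 CPM in siZfp871 against 5.27 and 3.71 CPM in siNT (log2 fold change 1.50, SE 0.27, edgeR adjusted p = 0.0484). Tgfb1i1, the focal adhesion protein Hic-5, had 170 and 232 CPM in siZfp871 against 85.9 and 106 in siNT (1.07, SE 0.19, adjusted p = 0.0477). Dstn, the actin-severing destrin, had 744 and 874 CPM against 360 and 439 (1.02, SE 0.16, adjusted p = 0.0355). The tropomyosin Tpm4 rose by 0.80 (SE 0.11, adjusted p = 0.026), the calponin Cnn2 by 0.87 (SE 0.13, adjusted p = 0.0336) and Amotl2, an angiomotin, by 1.48 (SE 0.27, adjusted p = 0.0476). All 6 had both siZfp871 libraries above both siNT libraries. None of these 6 calls remained without siZfp871 library a, siZfp871 library b, siNT library a or siNT library b, where edgeR called no gene of the list. Without siSrrm4 library b 3 genes were called.

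The other knockdowns had other values for this list, and the difference between knockdowns was tested only for siZfp871 against siSrrm4. In siSrrm4 12 of the 21 genes lay above 0, against 50% of all genes tested, with a median of 0.11. Of the 21, 1 rose (Cnn2, 0.86, SE 0.13, edgeR adjusted p = 0.0295) and none fell, with 4.7% of all genes called, 1.41% higher and 3.29% lower. That call was lost without siNT library a, siNT library b, siSrrm4 library b or either siZfp871 library. In the first experiment, with no test, 4 of 21 lay above 0 in siMbnl1/Mbnl2 and 4 of 21 in siNacc1, with medians of -0.26 and -0.56. The medians of all genes that reached 50 counts were -0.01 and 0.01, and no share of all genes above 0 is given there. Past the size rule in siNacc1 were Cnn2 (-2.20), Cyr61 (-1.32), Csrp1 (-1.18) and Tgfb1i1 (-1.04), all lower, and in siMbnl1/Mbnl2 Cnn2 (-1.28) and Amotl2 (1.02). Directly against siSrrm4, 7 genes of the list rose in siZfp871 and none fell, with 11.1% of all genes called, 5.53% higher and 5.57% lower. They were led by Tgfb1i1 (1.56, SE 0.19, edgeR adjusted p = 0.0118), Fos (1.39), Dstn (1.37) and Actn1 (1.05). These calls were lost without siSrrm4 library b and without either siZfp871 library, and 4 genes were called without siSrrm4 library a.

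**Figure D4:**
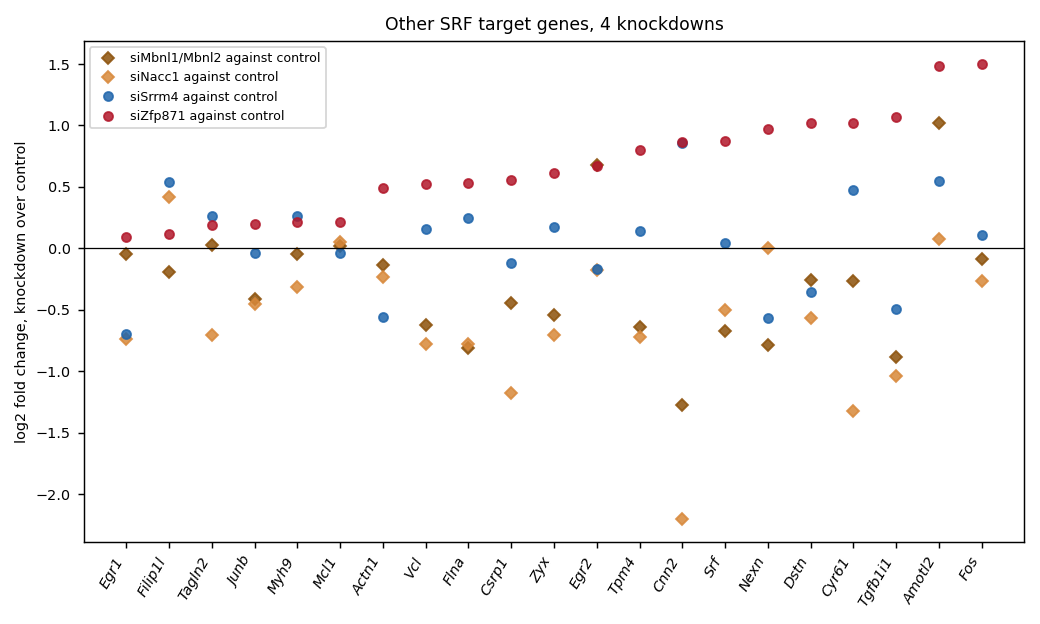
Log2 fold change of 21 SRF target genes outside the set (x axis, in the order of their value in siZfp871) in the 4 knockdowns, each over its own control. All 21 siZfp871 points lie above 0, from 0.09 to 1.50, while 17 of the 21 points of each first-experiment knockdown lie at or below 0. The median of all genes was -0.01 in siZfp871, -0.01 in siMbnl1/Mbnl2 and 0.01 in siNacc1.

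Of the factors themselves, Srf had 135 and 198 CPM in siZfp871, 84.6 and 102 in siSrrm4 and 85.1 and 96.3 in siNT. It did not pass against siNT and rose against siSrrm4 (log2 fold change 0.84, SE 0.20, edgeR adjusted p = 0.0451), a call lost at least without either siSrrm4 or either siZfp871 library. Of 20 tested genes of the SRF and actin-dynamics list of 23, 1 rose and 1 fell in siZfp871: the formin Diap1 (0.53, SE 0.10, edgeR adjusted p = 0.0485) and the cofilin kinase gene Limk2 (-0.74, SE 0.11, adjusted p = 0.0304). In siSrrm4 2 fell, Elk3 (-1.07, SE 0.18, edgeR adjusted p = 0.0333) and Limk2 (-0.78, SE 0.11, adjusted p = 0.025). The siZfp871 calls were lost without either siNT or either siZfp871 library, that of Diap1 also without either siSrrm4 library, and the siSrrm4 calls without any one library other than siSrrm4 library a. The median of the list was 0.02 in siZfp871 and 0.01 in siSrrm4. The myocardin-related coactivator genes Mkl1 and Mkl2 passed in no comparison, with 11.4 and 12.8 RPKM for Mkl1 in siZfp871, 11.5 and 10.3 in siSrrm4 and 13.3 and 12.9 in siNT. In siNacc1 Tmsb10, an actin-monomer-binding thymosin, was at 249.7 CPM against 502 in siNT (-1.01).

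Other contractile lists were read in the same fit. Of 10 tested smooth muscle genes, edgeR called 0 higher and 1 lower in siZfp871: Synpo2, a Z-disc and stress-fibre protein, with 6.32 and 8.38 CPM against 18.9 and 21.8 in siNT (-1.47, SE 0.19, edgeR adjusted p = 0.0238). DESeq2 called 2 higher and 1 lower. Both siZfp871 libraries were above both siNT libraries for 4 of the 10 and below them for 4, against 25% and 25.5% of all genes. Directly against siSrrm4, edgeR called Csrp1 higher and Synpo2 lower, with 5.53% of all genes called higher and 5.57% lower. The smooth muscle myosin gene Myh11, also among the 10, was at 0.67 and 1.11 CPM in siZfp871 and 0.11 and 0.134 CPM in siSrrm4, against 0.194 and 0.313 in siNT, on 5 to 56 counts a library. Only in siZfp871 did both its libraries reach the filter cutoff of 0.212 CPM, so no test is given for it. In siNacc1 Cald1, the actin-binding caldesmon, was past the size rule at 61.4 CPM against 142 in siNT (-1.21). Of 11 tested sarcomere genes edgeR called 0 in siZfp871 and 0 in siSrrm4, with 2 at an unadjusted p of 0.05 in each, and DESeq2 called 0 and 2. Past the size rule in that list were the myosin-binding protein gene Mybpc2 in siMbnl1/Mbnl2 (1.35) and the slow troponin gene Tnni1 in siNacc1 (1.19). Of 14 non-muscle actomyosin genes 1 rose (Tpm4) and 1 fell in siZfp871, the filament-capping tropomodulin gene Tmod1 (-1.39, SE 0.24, edgeR adjusted p = 0.0451). DESeq2 called 4 higher and 1 lower, and edgeR called 3 higher and 0 lower directly against siSrrm4 (Actn1, Mprip and Tpm4). Of 8 tested relatives of Pdlim3, 1 rose in siZfp871, Lasp1, an actin-binding LIM protein (0.83, SE 0.13, edgeR adjusted p = 0.033). DESeq2 called 3 higher and 0 lower, and edgeR called 4 higher and 0 lower directly against siSrrm4 (Csrp1, Csrp2, Lasp1 and Pdlim7). In siNacc1 3 of 7 were past the size rule, all lower: Csrp1, Pdlim7 (-1.18) and Pdlim2 (-1.06). The calls of these lists in siZfp871 against siNT were lost without either siZfp871 library and without either siNT library. Those of Tmod1 and, without library b, Lasp1 were lost without a siSrrm4 library too. The direct calls against siSrrm4 in these lists also depended on single libraries.

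Levels of Acta1 and Acta2 were also compared with every other gene over the 6 libraries of the second experiment. The gene most like Acta1 was Nup37, a nuclear pore subunit (Pearson r of log2 CPM 0.998 of 12377 genes), then Mrpl50, Tbl1x, Mid2 and Gadd45g, at 0.994 or more. The gene most like Acta2 was Pole3, a DNA polymerase epsilon subunit (0.996), then Osbpl11, Rsu1, Hn1l and Mmachc, at 0.991 or more. Within the set, Tpm1 was closest to both, with r of 0.946 for Acta1 and 0.951 for Acta2, and Actg2 had an r of 0.938 with Acta2, at rank 196 of all genes. These values describe 6 libraries in 3 groups that share depth and letter, and genes with small changes can reach as high an r as genes with large ones.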

How the data were processed

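RNA was sequenced from 9 N2A libraries in 2 experiments, and the members and gene lists were chosen with earlier results of these data known. The authors deposited raw counts per gene and cRPKM (RPKM per gene; the c is not explained), of which the cRPKM of the first experiment was used. PSI values are percent, deposited by the authors from vast-tools per the series' design text, with inclusion and exclusion read numbers. The submitters' processing notes name mm9, CASAVA 1.8 and edgeR, with no roles given. No source used here gives the aligner, annotation, strand use or RNA kit. Of the per-library columns, 17 were not used: the per-event PSI, the cRPKM of the second experiment and a trimmed version of a control library.

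From the counts, edgeR 4.0.16 (R 4.3.3; limma 3.58.1) was run over the 6 libraries of the second experiment: filterByExpr (12378 genes, cutoff 0.212 CPM), TMM, quasi-likelihood test, Benjamini-Hochberg over all tested genes, call at 0.05. DESeq2 1.42.0 was an alternative. Each SE of a log2 fold change was worked back from the edgeR test, as the size of the change divided by the square root of its F value. Differences within letters used log2 CPM with a prior count of 2. Cassette exons were tested with edgeR on inclusion and exclusion reads (at least 10 reads), called at an adjusted p of 0.05 and 10 points. In the first experiment no test is possible; values carry 95% exact Poisson or Clopper-Pearson intervals, which cover counting error only, and size rules need 50 counts and a log2 fold change of 1 (prior count 2), or 20 reads and 20 points. PSI was recomputed from the read numbers, and the authors' filtered PSI was an alternative. RPKM in the second experiment was computed from counts, with gene lengths implied by the counts and cRPKM of the first. Tests were also run on simulated data, with the outcome not reported here. Normalisation was separate for each experiment. Named genes were all members, and in other lists the genes called or past a size rule, with Actb, Actg1, Mkl1 and Mkl2 named beside them. Not every gene of the marker list for the labelled line is reported here.

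Depth was 44186088 to 63715449 counts per library. Genes at 10 to 100 counts (Acta1 outside siZfp871, Tagln and, in the knockdowns of the first experiment, Acta2, Actg2 and Myl9) are the least precise. Alternatives tried were other size factors, DESeq2, no filter, a letter block, only the libraries compared, each library left out, other read minimums and the authors' own PSI.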

Additional observations from a re-analysis of the deposited data

How the results depend on the processing

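The number of genes called by edgeR depended strongly on the libraries. In siSrrm4 582 genes were called, against 1754 with DESeq2's Wald test, 0 with only the 4 libraries compared, and 0 to 180 when each library was left out in turn. In siZfp871 358 were called, against 1347 with DESeq2, 178 with only the 4 libraries and 0 to 211 with a library left out. For siZfp871 directly against siSrrm4 it was 1374, against 2407 with DESeq2 and 0 to 1179 with a library left out. DESeq2's size factors and the absence of a filter on low counts kept each count within 1.5 times. The 25 exons called in siSrrm4 became 16 at 20 reads and 0 or 1 with a library left out. In siZfp871 0 exons were called, also at 20 reads and with each library left out. With a floor of 10 counts, 350 and 645 genes passed the size rule in siMbnl1/Mbnl2 and siNacc1. With a cut of 10 points, at least 20 reads and intervals that do not overlap, 429 and 463 exons passed the rule for exons. The cause of these changes was not tested beyond what fewer libraries or a lower floor or cut bring by construction.

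The letters a and b were given by the column names only. Same-letter libraries deviated together from their group means (r of 0.749 between siSrrm4 and siNT, 0.662 between siZfp871 and siNT, 0.637 between siZfp871 and siSrrm4), but with 2 letters and no source for them they were not treated as pairs. With a replicate block for the letter, 4565 genes were called in siSrrm4, 3854 in siZfp871 and 5191 between them, with 37 exons in siSrrm4 and 1 in siZfp871. In that fit the SRF target list had 7 genes higher and 5 lower in siSrrm4 and 16 and 0 in siZfp871. In siZfp871 the smooth muscle list had 3 higher and 2 lower, the sarcomere list 2 and 2, the non-muscle actomyosin list 7 and 1, the Pdlim3 relatives 4 and 1 and the SRF factor list 5 and 4.

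For the contractile genes, 365 of 370 recomputed log2 fold changes and all 64 recomputed PSI differences moved by less than the spread between libraries or the counting interval. With 2 libraries a group, leaving 1 out moves a mean PSI by less than their SD, so those PSI differences could not have failed. The yardstick for log2 fold changes was also wide: Acta2 in siSrrm4 went from -1.25 to 0.09 without siNT library b and stayed within it. These counts therefore say little about stability. The 5 log2 fold changes that moved further were of Acta2 and Actg2. Without siSrrm4 library b, Acta2 was at -3.09 in siSrrm4 and 5.97 in siZfp871 against siSrrm4, and Actg2 at -2.61 and 4.19. Without siNT library b, Actg2 was at 3.56 in siZfp871, where it ranged from 0.44 to 3.56 over the libraries left out. With a library left out, Acta2 in siSrrm4 ranged from -3.09 to 0.09 and Actg2 from -2.61 to 1.42, while Acta1 in siZfp871 ranged from 3.69 to 4.15 and Acta2 from 1.72 to 4.21. Leaving a library out changed the sign of the log2 fold changes of Acta2, Actg2, Tpm1, Pdlim3 and Tagln in siSrrm4, and of none in siZfp871. It also changed the sign of the PSI differences of the Tpm1 79-nt exon and the upstream Tpm3 copy in siZfp871. A lone library was assumed to vary like the other groups.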
